A study of Mus musculus with 6 samples.

Results

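The genes described here write, maintain, erase and read cytosine methylation in DNA. They were chosen by name: the maintenance methyltransferase gene Dnmt1, its recruiter Uhrf1 and the relative Uhrf2, the de novo methyltransferase genes Dnmt3a and Dnmt3b, the dioxygenase genes Tet1, Tet2 and Tet3, and the methyl-CpG reader gene Mbd2. All 9 were present among the 15553 genes of the deposited table. RNA was sequenced from hematopoietic stem cells sorted from the bone marrow of C57BL/6 mice aged 6 to 8 weeks, in 3 libraries labelled Yy1-KO and 3 labelled WT. The Yy1-KO animals had the genotype Yy1f/f;Mx1-Cre, in which loxP sites flank both Yy1 copies, and the WT animals had the genotype Mx1-Cre. Both groups thus carried the Cre transgene, whose promoter responds to interferon and is not restricted to stem cells. Neither the agent that induced Cre nor the deleted stretch of Yy1 is stated in the labels. YY1 is a zinc-finger transcription factor, and the series concerns its role in stem cell quiescence. The protocol describes a Lin-Sca1+c-Kit+CD48- sort with CD150+ and CD150- gates, while the source field of the libraries names the CD150+ gate. Libraries carry a number but no mouse, so the p-values reflect variation among libraries that could be partly technical.

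As background, DNMT1 copies methylation onto the new DNA strand after replication, guided by UHRF1, which binds hemimethylated DNA. DNMT3A and DNMT3B methylate sites that were unmethylated, and TET enzymes oxidise the methyl group, which leads to its removal. In blood, loss of Dnmt3a or Tet2 in mice expands stem cells, and both genes are frequently mutated in human clonal hematopoiesis.

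Levels are given in RPKM, reads scaled to the exonic length of the gene and to a size of the library. Reads in the listed genes numbered between 19473175 and 21757039 per Yy1-KO library and between 15102983 and 18460012 per WT library. The library size implied by the RPKM values was smaller, from 17402756 to 19535460 in Yy1-KO and from 12920190 to 16112105 in WT. RPKM was thus not scaled to the plain sum of these reads. Yy1 itself stood at 36.2, 16.6 and 28.5 RPKM in Yy1-KO, against 31.6, 42.3 and 52.1 RPKM in WT. The library labelled Yy1-KO replicate 1 therefore lay inside the WT range at the targeted gene, and the part of the gene that was counted may include undeleted exons. The same library held 12.8 RPKM of Xist, against 0.105 and 0 RPKM in the other Yy1-KO libraries and at most 0.313 RPKM in WT. Xist is transcribed from the inactive X chromosome of females, and the Y-linked gene Ddx3y was between 12.2 and 25.1 RPKM in all 6 libraries. WT replicate 3 stood apart from the other 5 libraries on the first principal component (34.6% of the variance) and listed 1991 genes at 0, against 373 to 1099 elsewhere.

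Markers of the sort gate were present. Kit was between 76.6 and 82.6 RPKM in Yy1-KO and between 112 and 140 RPKM in WT, and Ly6a, the Sca1 gene, between 26.1 and 44.7 RPKM in Yy1-KO and between 27.9 and 84.7 RPKM in WT. Slamf1, the CD150 gene, was between 3.77 and 5.96 RPKM in Yy1-KO and between 2.21 and 3.90 RPKM in WT, and Cd48, whose product the gate leaves out, was at most 1.97 RPKM in Yy1-KO and 3.76 RPKM in WT. Summed markers of granulocytes (9 of 10 listed) came to 35.8, 307 and 56.5 RPKM in Yy1-KO and 70.7, 174 and 17.7 RPKM in WT, and those of megakaryocytes and platelets (8 of 9 listed) to 116, 63.0 and 54.8 RPKM in Yy1-KO and 33.4, 40.5 and 34.96 RPKM in WT. Erythroid markers (7 of 10 listed) summed to 200 to 272 RPKM in Yy1-KO and to 210 to 256 RPKM in WT. Within that sum Car2 was lower in Yy1-KO without overlap (124 to 149 RPKM, against 165 to 200 RPKM in WT). The globin gene Hbb-bs was higher without overlap, at 28.8, 15.6 and 78.8 RPKM in Yy1-KO, against 3.50, 14.4 and 15.046 RPKM in WT. Its lowest Yy1-KO value was close to its highest WT value. Another globin gene, Hbb-bt, overlapped, at 16.3, 22.8 and 56.1 RPKM in Yy1-KO, against 37.2, 16.0 and 39.5 RPKM in WT (log2 fold change -0.05). Of the B cell list 1 of 7 genes was listed, of the T and NK cell list 3 of 7, and of the monocyte list 3 of 7. The B cell gene, Cd79b, was between 9.15 and 21.4 RPKM in Yy1-KO and between 13.3 and 28.6 RPKM in WT. Nkg7, of the T and NK cell list, was at most 8.72 RPKM in Yy1-KO and 15.3 RPKM in WT. The endothelial and stromal list had 5 of 7 listed, with Pecam1 between 8.78 and 11.4 RPKM in Yy1-KO and between 8.07 and 13.8 RPKM in WT. The part of the megakaryocyte and erythroid markers in the results was not tested.

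None of the 9 genes passed the test between genotypes. With limma on log2(RPKM + 0.5) and Benjamini-Hochberg adjustment over the 13179 genes that reached 1 RPKM in 3 or more libraries, 0 of 9 had an adjusted p under 0.05, as for all genes tested, where 0 were called (0%). At an unadjusted p under 0.05 there were 0 of 9, where 7.79% of all genes tested reached it (4.73% higher and 3.06% lower in Yy1-KO). A limma-voom fit of reads recovered from RPKM called 0 of the 9 and 0.0458% of 13114 genes, and 3 of the 9 had an unadjusted p under 0.05 there (Dnmt1, Dnmt3b and Uhrf1), all higher in Yy1-KO, where 8.14% of genes did (5.54% higher and 2.6% lower). The result depended on which library was left out. In limma-voom the count was 0 without Yy1-KO replicate 2 and 1 (Mbd2) without Yy1-KO replicate 1. It was 3 without WT replicate 3, where the genes were Dnmt1, Mbd2 and Tet2. The same 3 genes as with all libraries remained without WT replicate 1, WT replicate 2 or Yy1-KO replicate 3. The log2 fold change, Yy1-KO over WT, lay above 0 for 8 of the 9, where 51.9% of all genes did (57.2% in limma-voom), and its median was 0.22, against 0.02 over all genes tested. Limma-voom scaled to the sum of reads per library, which differs from the scaling of RPKM. Its log2 fold changes were 0.99 for Uhrf1 and 0.57 for Dnmt3b, against 0.91 and 0.50 in limma. The part of this scaling in the limma-voom p-values was not tested. The libraries of the genotypes did not overlap for Dnmt1, which was higher in Yy1-KO (7.63% of genes tested), and for Tet2, which was lower (6.87%).

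**Figure D1:**
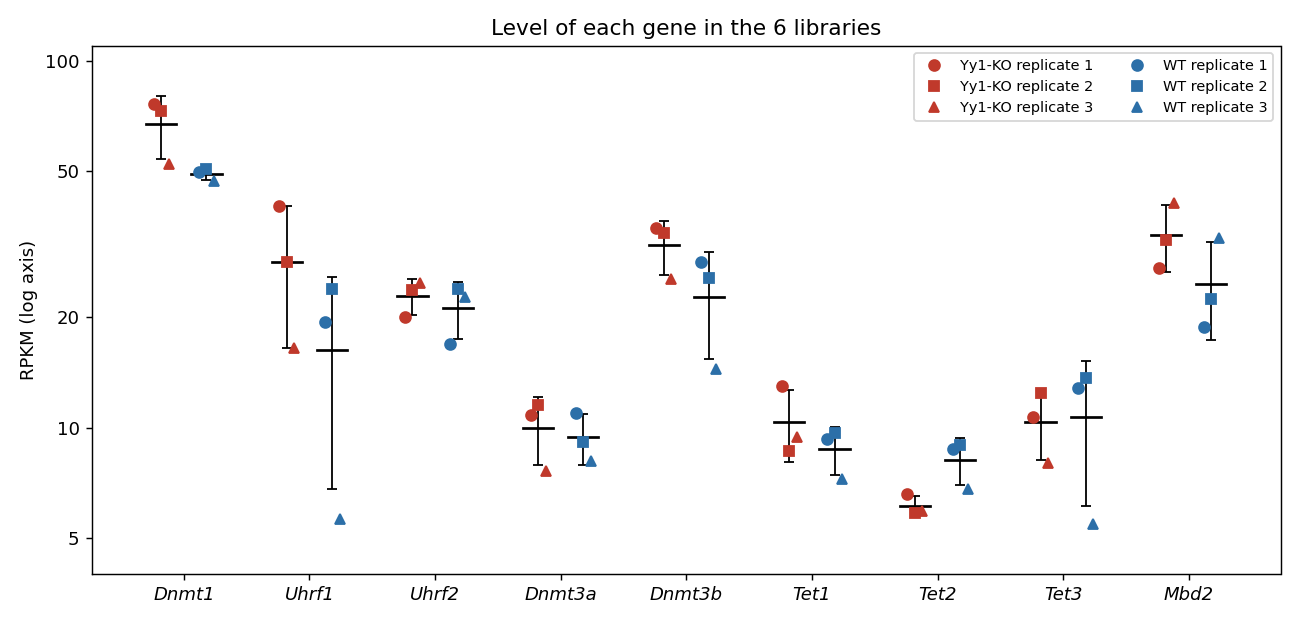
RPKM of the 9 genes on a log axis, with 1 point per library (red, Yy1-KO; blue, WT), the group mean as a bar and the SD as whiskers. The Yy1-KO points of Dnmt1 all lie above the WT points and those of Tet2 all lie below, while the triangle of WT replicate 3 is the lowest point of Uhrf1, Dnmt3b and Tet3.

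Dnmt1 was the most abundant of the 9 in both genotypes. The gene (ENSMUSG00000004099, chromosome 9: 20907209 to 20959888, minus strand, mm10) stood at 76.2, 73.0 and 52.4 RPKM in Yy1-KO, against 49.7, 50.7 and 47.2 RPKM in WT. Every Yy1-KO library lay above every WT library, but Yy1-KO replicate 3 exceeded the highest WT library by less than the spread within Yy1-KO. The means were 67.2 ± 12.9 RPKM in Yy1-KO and 49.2 ± 1.79 RPKM in WT (SD, n = 3 libraries each, as for all later means). The log2 fold change was 0.43 (standard error, SE, 0.19), with a 95% interval from -0.02 to 0.88, and limma gave an adjusted p of 0.660. The unadjusted limma p was 0.0605 and that of limma-voom 0.0149, with an adjusted p of 0.502 in limma-voom. At the mean level of WT, Dnmt1 exceeded 93.4% of all listed genes.

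On the log2 scale with all libraries, Uhrf1 had the largest fold change of the 9 and the largest standard error. UHRF1 reads hemimethylated DNA and a histone mark and ubiquitinates histone H3 to recruit DNMT1. The gene (ENSMUSG00000001228, chromosome 17: 56303321 to 56323486, plus strand) stood at 40.2, 28.3 and 16.5 RPKM in Yy1-KO, against 19.4, 23.9 and 5.65 RPKM in WT. The groups overlapped, since Yy1-KO replicate 3 lay below WT replicates 1 and 2, and WT replicate 3 was lower than any other library. Its reads numbered 2979, 2112 and 1369 in Yy1-KO and 1067, 1640 and 356 in WT. The log2 fold change was 0.91 (SE 0.56), with a 95% interval from -0.38 to 2.21 (limma adjusted p = 0.744). It was 0.30 without WT replicate 3, where Mbd2 (0.68), Tet2 (-0.50) and Dnmt1 (0.40) were farther from 0, and 0.0055 without both that library and Yy1-KO replicate 1.

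Promoter windows are printed for the starts that hold a match to the E2F site, which were at Dnmt1 and Uhrf1. The window of Tet2 is printed because this gene was lower in Yy1-KO. The match was thus the rule for showing Dnmt1 and Uhrf1, not a finding in windows chosen by level. E2F factors switch on genes of DNA replication. The windows are RefSeq's (GRCm38.p6) and give the 250 bases before an annotated start, 5′ to 3′ on the gene's strand, with a match to an E2F spelling in capitals. Those of Dnmt1 and Uhrf1 lie before the start shown but downstream of the other annotated starts of these genes. They may therefore be transcribed from those starts and are not promoter sequence alone.
Dnmt1, chr9:20952624-20952873, minus strand: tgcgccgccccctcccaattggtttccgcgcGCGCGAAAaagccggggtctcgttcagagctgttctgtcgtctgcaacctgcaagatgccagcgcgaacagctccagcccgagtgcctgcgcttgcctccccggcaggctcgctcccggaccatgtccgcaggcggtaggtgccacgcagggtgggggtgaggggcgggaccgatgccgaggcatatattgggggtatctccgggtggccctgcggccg
Uhrf1, chr17:56304063-56304312, plus strand: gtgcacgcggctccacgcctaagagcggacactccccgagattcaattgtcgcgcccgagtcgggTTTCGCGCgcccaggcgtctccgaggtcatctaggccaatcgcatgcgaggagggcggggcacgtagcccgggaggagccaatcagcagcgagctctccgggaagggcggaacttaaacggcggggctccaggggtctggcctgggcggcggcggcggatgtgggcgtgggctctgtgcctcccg
Tet2, chr3:133544391-133544640, minus strand: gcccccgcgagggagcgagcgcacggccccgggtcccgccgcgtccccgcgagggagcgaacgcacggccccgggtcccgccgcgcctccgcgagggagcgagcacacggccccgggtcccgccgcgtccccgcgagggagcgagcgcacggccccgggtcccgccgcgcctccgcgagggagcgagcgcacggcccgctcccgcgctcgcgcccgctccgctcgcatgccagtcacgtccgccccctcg
The E2F spellings searched were TTTCCCGC, TTTCGCGC, TTTGGCGC and TTTGCCGC on both strands. In windows from 250 bases before to 50 bases after the start, a match began at positions -219 and 34 from this Dnmt1 start and at position -185 from this Uhrf1 start, where negative positions lie before the start. The capitals of Dnmt1 read TTTCGCGC on the other strand. No match was found at the other 2 Dnmt1 starts, at the other Uhrf1 start, or at the starts of the other 6 genes counted, so 2 of 8 genes and 2 of 13 starts held one. Mbd2 was left out of these counts and of the YY1 count below. Among all 32841 RefSeq windows of this length, 2.27% held one. That share was not matched for base content, and each E2F spelling contains a CpG. The median over all windows was 7 CpG dinucleotides and 52.7% G and C. In the full windows with a match these were 33 and 69.7% for Dnmt1 and 33 and 68.3% for Uhrf1. Whether the matches exceed what such base content gives was not tested. The YY1 spelling AANATGGC, searched on both strands, was found at 0 of the 13 starts and in 6.05% of all windows. The Tet2 window above has 51 CpG dinucleotides, that of Uhrf1 30 and that of Dnmt1 26. Each level covers all starts of a gene, so no start can be set against a level.

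Uhrf2, a relative of Uhrf1 that does not replace it in maintenance, was close to even between genotypes. It stood at 20.04, 23.8 and 24.9 RPKM in Yy1-KO, against 16.9, 24.0 and 22.7 RPKM in WT (ENSMUSG00000024817, chromosome 19: 30030513 to 30093722). The ranges overlapped, with WT replicate 1 below every Yy1-KO library and Yy1-KO replicate 3 above every WT library. The log2 fold change was 0.12 with a 95% interval from -0.40 to 0.64 (limma adjusted p = 0.925).

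The de novo methyltransferase genes differed from each other. Dnmt3b (ENSMUSG00000027478, chromosome 2: 153649450 to 153687730) stood at 35.1, 33.9 and 25.4 RPKM in Yy1-KO, against 28.4, 25.6 and 14.5 RPKM in WT. The groups overlapped, because Yy1-KO replicate 3 lay below WT replicates 1 and 2. On the log2 scale the difference, Yy1-KO minus WT, was 0.50 (SE 0.29), with a 95% interval from -0.19 to 1.18 (limma adjusted p = 0.743), and it was 0.21 without WT replicate 3. Dnmt3a (ENSMUSG00000020661, chromosome 12: 3806007 to 3914443) stood at 10.8, 11.6 and 7.61 RPKM in Yy1-KO, against 11.004, 9.13 and 8.09 RPKM in WT. Its libraries were interleaved between the genotypes. Its log2 fold change was 0.07 with a 95% interval from -0.61 to 0.76 (limma adjusted p = 0.966). The value is for the whole gene, so the long and the short Dnmt3a isoform, which start at different promoters, are not separated. Exons of Dnmt3a share 133 bases with the antisense gene Dnmt3aos, and whether counting used strand is not known, so reads there cannot be told apart.

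Of the TET genes, Tet2 alone was lower in Yy1-KO without overlap of the libraries. Tet2 (ENSMUSG00000040943, chromosome 3: 133463679 to 133545139) stood at 6.59, 5.87 and 5.91 RPKM in Yy1-KO, against 8.75, 8.97 and 6.81 RPKM in WT. All 3 Yy1-KO libraries lay below all 3 WT libraries, with the highest Yy1-KO value close to the lowest of WT. The means were 6.13 ± 0.406 RPKM in Yy1-KO and 8.18 ± 1.19 RPKM in WT. Between genotypes the log2 fold change was -0.38 (SE 0.30), with a 95% interval from -1.08 to 0.31 (limma adjusted p = 0.801). It stayed between -0.50 and -0.31 when each library was left out in turn. Tet2 exons share 43 bases with Gm42567 on the other strand.

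Tet1 and Tet3 overlapped between genotypes. Tet1 (ENSMUSG00000047146, chromosome 10: 62804570 to 62908996), which carries the CXXC domain that binds CpG-rich DNA, stood at 13.0, 8.66 and 9.43 RPKM in Yy1-KO, against 9.31, 9.70 and 7.27 RPKM in WT. Only Yy1-KO replicate 1 exceeded the WT range. On the log2 scale the difference, Yy1-KO minus WT, was 0.22 with a 95% interval from -0.46 to 0.90 (limma adjusted p = 0.880). Tet3 (ENSMUSG00000034832, chromosome 6: 83362373 to 83459084) stood at 10.7, 12.4 and 8.00 RPKM in Yy1-KO, against 12.9, 13.7 and 5.45 RPKM in WT. Here WT replicate 3 was the lowest library and WT replicates 1 and 2 the highest. Its log2 fold change was 0.04 with all libraries (95% interval from -0.89 to 0.98, limma adjusted p = 0.988) and -0.36 without WT replicate 3.

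Mbd2, whose product binds methylated CpG sites and brings the NuRD deacetylase complex to them, was second of the 9 by mean RPKM. The gene (ENSMUSG00000024513, chromosome 18: 70568189 to 70626131) stood at 27.2, 32.6 and 41.1 RPKM in Yy1-KO, against 18.8, 22.4 and 33.0 RPKM in WT. WT replicate 3, lowest for Uhrf1, Dnmt3b and Tet3, was the highest WT library for Mbd2 and overlapped Yy1-KO. Between genotypes the log2 fold change was 0.45 (SE 0.27), with a 95% interval from -0.17 to 1.08 (limma adjusted p = 0.743). It was 0.68 without WT replicate 3, at an unadjusted p of 0.0290, and 0.28 without WT replicate 1.

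**Figure D2:**
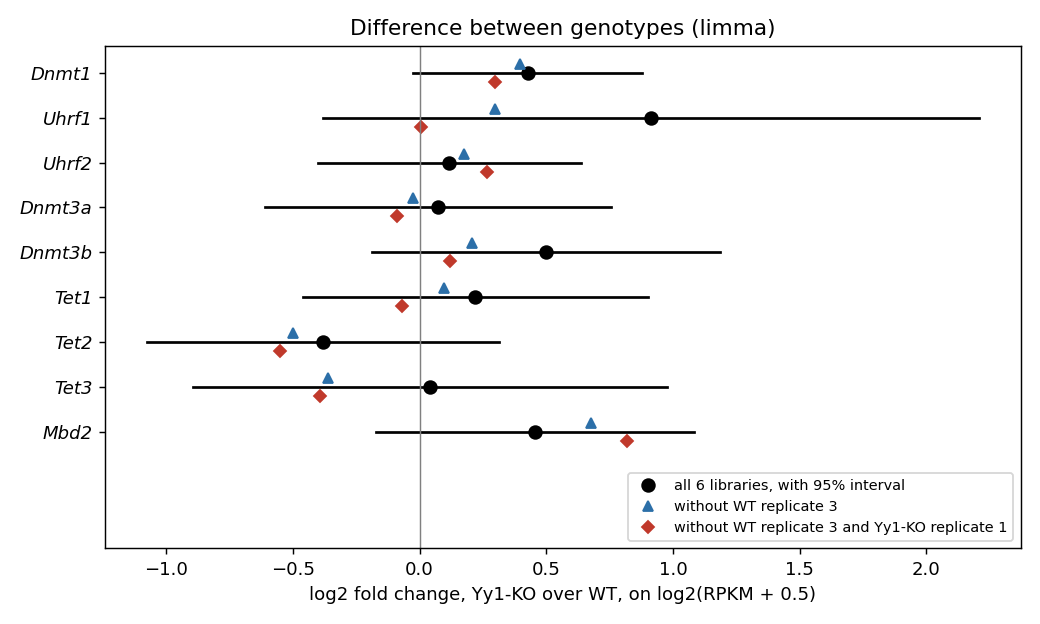
Log2 fold change of each gene, Yy1-KO over WT, on log2(RPKM + 0.5), with the 95% limma interval (black), without WT replicate 3 (blue triangles) and without WT replicate 3 and Yy1-KO replicate 1 (red diamonds). All 9 intervals include 0, and the point of Uhrf1 moves from 0.91 to 0.30 and 0.0055.

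The authors' deposited table gave the same order of sizes. In the authors' deposited table, Uhrf1 had a log2 fold change of 0.92 (p = 0.0231, adjusted p = 0.586) and Dnmt1 one of 0.42 (p = 0.0208, adjusted p = 0.583). These were the only 2 of the 9 with an unadjusted p under 0.05 in the authors' deposited table, where 8.02% of genes reached it, and 0 of the 9 had an adjusted p under 0.05, where 0.154% did. Tet2 stood at -0.41 in the authors' deposited table (p = 0.0909).

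By mean RPKM, the genes fell into an upper set and a lower set in both genotypes, a split that depends on the length RPKM divides by. The upper set was Dnmt1, Mbd2, Dnmt3b, Uhrf1 and Uhrf2. The lower set was Tet3, Tet1, Dnmt3a and Tet2. In Yy1-KO the order of mean RPKM was Dnmt1 (67.2), Mbd2 (33.6), Dnmt3b (31.4), Uhrf1 (28.3), Uhrf2 (22.9), Tet3 (10.4), Tet1 (10.4), Dnmt3a (10.002) and Tet2 (6.13). Neighbours whose libraries did not overlap there were Dnmt1 with Mbd2, Uhrf2 with Tet3, and Dnmt3a with Tet2. In WT the order was Dnmt1 (49.2), Mbd2 (24.7), Dnmt3b (22.8), Uhrf2 (21.2), Uhrf1 (16.3), Tet3 (10.7), Dnmt3a (9.41), Tet1 (8.76) and Tet2 (8.18). In WT the sole neighbours without overlap were Dnmt1 and Mbd2, as WT replicate 3 of Uhrf1 lay among the TET values.

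RPKM divides by all exonic bases of a gene, and that length exceeded the coding transcript with the longest coding sequence by unequal factors, from 1.08 for Tet1 to 2.81 for Tet3. As a second scale, all reads of the gene were divided by the length of that transcript. Reads from exons outside the transcript stay in, which can raise the value most for genes with a large factor. Per kilobase in this sense, Tet3 averaged 29.1 ± 6.26 in Yy1-KO and 30.0 ± 12.8 in WT. Tet1 was lower, at 11.1 ± 2.49 in Yy1-KO and 9.42 ± 1.40 in WT, whereas in RPKM the 2 genes were level in Yy1-KO. On the same scale Uhrf2 averaged 55.6 ± 6.14 in Yy1-KO and 51.5 ± 9.13 in WT, above Uhrf1 at 33.6 ± 14.1 in Yy1-KO and 19.4 ± 11.3 in WT. Dnmt1 was first of the 9 on this scale too, at 92.3 ± 17.8 in Yy1-KO and 67.6 ± 2.46 in WT. On this scale Tet3 in WT lay above Dnmt3b (26.96 ± 8.70) and Uhrf1, so that it left the lower set there. Uhrf2 took second place from Mbd2, which averaged 55.3 ± 11.5 in Yy1-KO and 40.7 ± 12.1 in WT. The order below Dnmt1 therefore depends on the length used.

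Within each family, the share of the summed RPKM held by each gene was computed per library. Dnmt3a made up 8.87%, 9.76% and 8.91% of the DNMT sum in Yy1-KO, against 12.4%, 10.7% and 11.6% in WT. The groups did not overlap, although Dnmt3a itself was level; the means of Dnmt1 and Dnmt3b were higher in Yy1-KO. Dnmt1 held 61.8% ± 0.554 of that sum in Yy1-KO and 60.9% ± 6.10 in WT. Tet2 made up 21.8%, 21.8% and 25.3% of the TET sum in Yy1-KO, against 28.3%, 27.7% and 34.9% in WT, again without overlap. Tet1 held 38.5% ± 5.64 in Yy1-KO and 32.4% ± 4.15 in WT, and Tet3 held 38.6% ± 6.53 in Yy1-KO and 37.3% ± 8.13 in WT. Uhrf1 held 66.7%, 54.4% and 39.8% of the UHRF sum in Yy1-KO, against 53.4%, 49.9% and 19.9% in WT.

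The summed DNMT level was 4.03, 4.40 and 3.66 times the summed TET level in Yy1-KO, against 2.88, 2.64 and 3.57 times in WT. These ranges did not overlap in RPKM and did overlap per kilobase of coding transcript, at 2.63 to 2.92 in Yy1-KO and 1.76 to 2.67 in WT. The shares of Dnmt3a and Tet2 kept their separation on that scale. Of 8 such quantities, 3 (the shares of Dnmt3a and Tet2 and the ratio of the sums) had an exact two-sided permutation p of 0.1, the smallest that 3 against 3 libraries allow, and a Benjamini-Hochberg adjusted p of 0.267, so none passed.

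**Figure D3:**
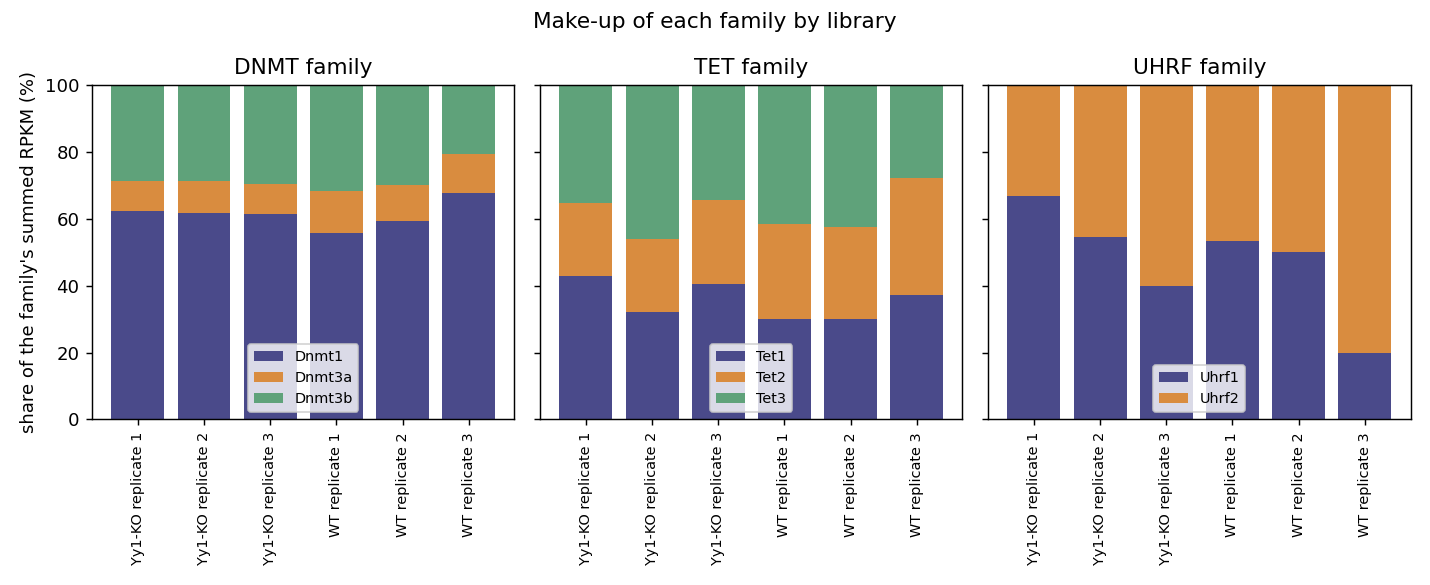
Share of each family's summed RPKM, in percent, held by each gene in each library, with the Yy1-KO libraries on the left of each panel and the WT libraries on the right. The Dnmt3a band is between 8.87% and 9.76% in Yy1-KO and between 10.7% and 12.4% in WT, the Tet2 band is at most 25.3% in Yy1-KO and at least 27.7% in WT, and Uhrf1 is smallest in WT replicate 3 at 19.9%.

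Genes of DNA replication stood higher in Yy1-KO beside Dnmt1 and Uhrf1. DNMT1 and UHRF1 are best known in dividing cells, where maintenance methylation follows the replication fork. Of 26 S phase genes, 25 had a log2 fold change above 0, 8 were higher at an unadjusted p under 0.05 (4.73% of genes tested were) and 0 had an adjusted p under 0.05 in limma. Their median log2 fold change was 0.68, and their summed level was 1013, 903 and 943 RPKM in Yy1-KO, against 683, 722 and 566 RPKM in WT. Among these genes Cdc45 was listed at 0 in WT replicate 3 and Ccne1 at 0 in WT replicate 1. Of 12 G2/M genes, 12 were above 0 with a median of 1.42, 11 had an unadjusted p under 0.05 and 0 an adjusted one in limma, and 4 (Top2a, Mki67, Kif11 and Cenpf) had an adjusted p under 0.05 in limma-voom. The sum of the list was 420, 438 and 400 RPKM in Yy1-KO, against 174, 190 and 124 RPKM in WT. In such bulk libraries, more cells in cycle and more RNA per cell cannot be told apart. The part of these cell cycle genes in the levels of Dnmt1 and Uhrf1 was not tested.

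The mean log2 level of the S phase genes was taken from that of each methylation gene to set them side by side per library. Dnmt1 lay 1.66, 1.69 and 1.30 above it in Yy1-KO and 1.69, 1.69 and 2.21 above it in WT. Uhrf1 lay at 0.75, 0.34 and -0.34 in Yy1-KO and at 0.36, 0.62 and -0.74 in WT. Relative to the S phase genes, neither gene was higher in Yy1-KO beyond the WT range apart from Uhrf1 in Yy1-KO replicate 1. Tet2 lay at -1.77, -1.84 and -1.74 in Yy1-KO and at -0.75, -0.75 and -0.50 in WT, without overlap. The same held for Dnmt3a, at -1.10, -0.92 and -1.41 in Yy1-KO and -0.43, -0.72 and -0.26 in WT, and for Tet1 and Tet3. A gene whose level does not follow the S phase genes is lower in Yy1-KO on this scale by construction, so the gap is not particular to Tet2.

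**Figure D4:**
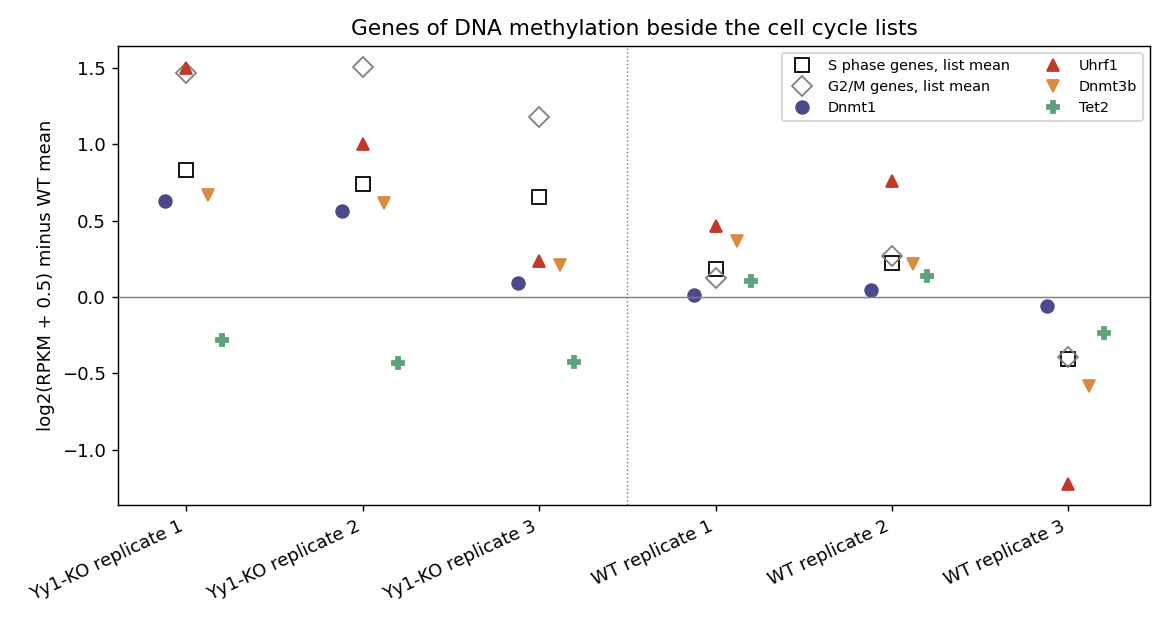
Log2(RPKM + 0.5) minus the WT mean in each library for Dnmt1, Uhrf1, Dnmt3b and Tet2 (filled), beside the mean of 26 S phase genes and of 12 G2/M genes (open). The cell cycle lists are above the WT mean in all 3 Yy1-KO libraries, Tet2 is below it there, and WT replicate 3 is the lowest library of both lists and of Uhrf1.

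Partners of maintenance methylation were described from a list of 13 genes, of which 11 were tested. In limma 0 passed, 8 lay above 0 and the median log2 fold change was 0.20, or 0.02 without Yy1-KO replicate 1. Hells, a chromatin remodeler needed for methylation of repeats, was the one gene at an unadjusted p under 0.05. It stood at 27.9, 18.9 and 25.6 RPKM in Yy1-KO, against 16.2, 15.3 and 4.99 RPKM in WT, without overlap, and its log2 fold change was 1.10 (SE 0.45, limma adjusted p = 0.626). Libraries also did not overlap for Pcna, the replication clamp that binds DNMT1, for the ligase gene Lig1, whose methylated product binds UHRF1, and for Smchd1, which acts on the inactive X chromosome; these 3 were named after their values were seen. That made 4 of 11 without overlap and higher in Yy1-KO, where 7.63% of genes tested were, and Pcna is among the S phase genes too. Pcna averaged 162 ± 21.9 RPKM in Yy1-KO and 125 ± 6.48 RPKM in WT. Usp7, which stabilises UHRF1 and DNMT1, averaged 39.5 ± 3.18 RPKM in Yy1-KO and 33.4 ± 4.16 RPKM in WT, and Cdca7, the partner of HELLS, averaged 44.1 ± 8.33 RPKM in Yy1-KO and 46.2 ± 4.79 RPKM in WT.

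None of the other readers of methylated DNA passed the test. Of 7 genes, 5 lay above 0 around a median of 0.06 on the log2 scale, and 0 had an unadjusted p under 0.05. The largest log2 fold changes were those of Mbd4, a reader that is also a thymine glycosylase (0.59, SE 0.42), and of Zbtb4, a zinc-finger reader (-0.47, SE 0.45). Among 13 NuRD subunits the median was 0.17, or 0.08 without Yy1-KO replicate 1, and 1 gene had an unadjusted p under 0.05, a share close to the 7.79% of all genes tested. That gene, Mta1, stood at 51.0, 59.8 and 67.4 RPKM in Yy1-KO, against 30.9, 47.8 and 39.4 RPKM in WT, without overlap (log2 fold change 0.60, SE 0.22, limma adjusted p = 0.589). Mbd3, the subunit that takes the place of MBD2 in other NuRD complexes, had a log2 fold change of 0.08 (SE 0.37).

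Downstream of the TET enzymes, base excision repair removes the oxidised bases. Of 14 genes of this arm, 7 lay above 0 and 7 below, with a median of -0.04. Neil3, a glycosylase that also acts at replication forks, was the one gene at an unadjusted p under 0.05, a count close to the 7.79% of all genes tested. It stood at 11.2, 15.2 and 18.1 RPKM in Yy1-KO, against 2.28, 2.30 and 1.23 RPKM in WT, a log2 fold change of 2.66 (SE 0.39), which did not pass in limma (adjusted p = 0.205) and had an adjusted p of 0.0384 in the authors' deposited table. Tdg, the glycosylase that excises the TET products, was at 1.28, 2.77 and 1.84 RPKM in Yy1-KO, against 2.996, 1.91 and 0.868 RPKM in WT. Tdg and Neil1 did not separate the genotypes.

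Genes whose products supply or limit the reaction were also listed. DNMTs take the methyl group from S-adenosylmethionine, and TETs use alpha-ketoglutarate, which the product of D2hgdh regenerates from an inhibitory relative. Of 13 such genes, 2 were higher and 1 was lower at an unadjusted p under 0.05, where 4.73% of all genes tested were higher and 3.06% lower, with 0 past adjustment in limma and a median log2 fold change of 0.04. D2hgdh stood at 2.20, 4.63 and 6.48 RPKM in Yy1-KO, against 11.7, 9.66 and 9.49 RPKM in WT, and its log2 fold change was -1.23 (SE 0.42, limma adjusted p = 0.568). Shmt1, of folate metabolism, averaged 18.9 ± 4.91 RPKM in Yy1-KO and 9.73 ± 2.49 RPKM in WT, and Idh3a, of the citric acid cycle, averaged 35.9 ± 5.56 RPKM in Yy1-KO and 25.4 ± 3.20 RPKM in WT. Mat2a, which makes the methyl donor, was abundant in both, at 167 ± 22.7 RPKM in Yy1-KO and 146 ± 12.5 RPKM in WT. Of 8 tested TET partners 6 lay above 0 around a median of 0.06, which was -0.04 without Yy1-KO replicate 1 and 0.25 without Yy1-KO replicate 3. At an unadjusted p under 0.05, as for 7.79% of all genes tested, was 1 of the 8: Hcfc1, a cofactor of the glycosyltransferase OGT, at 44.1 ± 2.79 RPKM in Yy1-KO and 32.8 ± 1.28 RPKM in WT. Ogt itself, which binds TET proteins, stood at 44.3, 48.0 and 46.4 RPKM in Yy1-KO, against 91.9, 69.9 and 43.5 RPKM in WT, with WT replicate 3 below the Yy1-KO range.

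**Figure D5:**
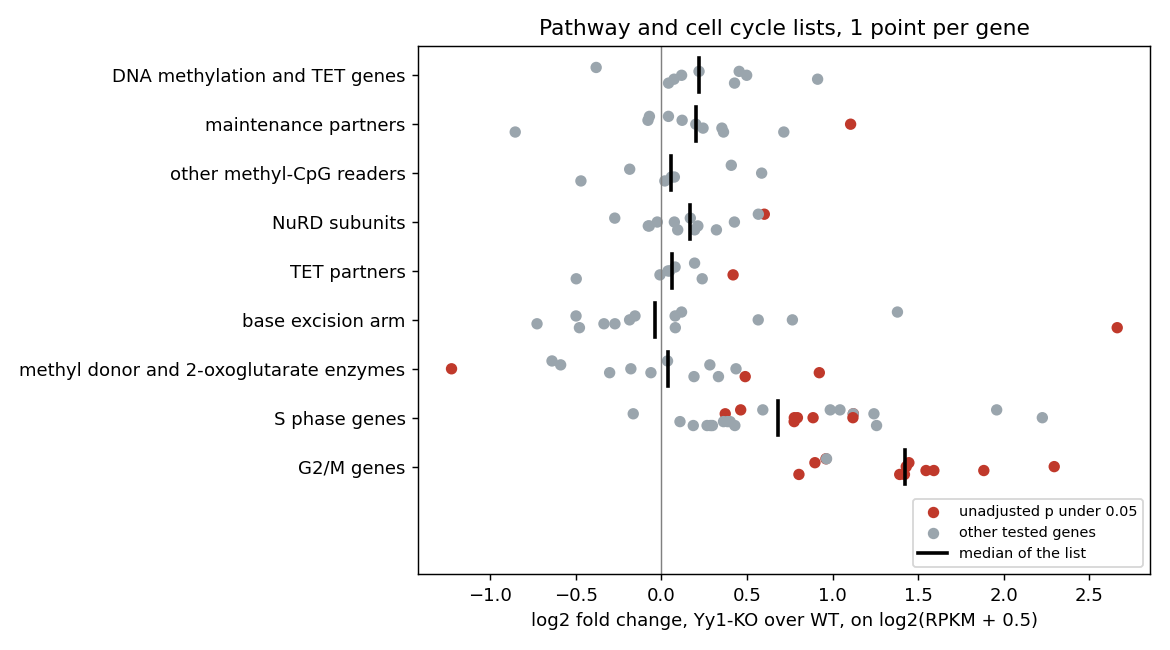
Log2 fold change, Yy1-KO over WT, of each tested gene by list, with red points at an unadjusted limma p under 0.05 and a bar at the list's median. The methylation and TET genes have a median of 0.22 with no red point, and the S phase and G2/M lists have medians of 0.68 and 1.42.

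The genes with the most similar profile over the 6 libraries were found by the root mean square distance between log2(RPKM + 0.5) profiles, each centred on its own mean. For Dnmt1 they were Larp1 (distance 0.055), the mismatch repair gene Msh6 (0.057) and the condensin II gene Ncapd3 (0.060). For Uhrf1 the nearest were farther away and were Gm37465 (0.18), Nmnat1 (0.19) and Sh2b2 (0.21). For Dnmt3b they were Parp9, Ube2s and Abcb4, for Dnmt3a Tardbp, C530008M17Rik and Arih1, for Tet1 Snx27, Nsmce4a and Oxr1, for Tet2 Rcor3, Rpl6 and R3hcc1l, for Tet3 Odf2, Man2a1 and Gon4l, for Uhrf2 Iqgap1, Stag1 and Ptbp1, and for Mbd2 Chchd2, Cct4 and Mycn. None of the 9 was among the nearest genes of another. With 6 libraries and 13179 genes, such near profiles are a description only.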

How the data were processed

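The authors deposited 1 table of 15553 genes. Per the submitters' processing notes they used Subread, featureCounts, edgeR and limma with mm10, and no versions, settings or gene filter are named there. The RPKM unit of the 6 library columns was found from the deposited values: times the exonic length of GENCODE M21 (GRCm38, which mm10 names), they were whole multiples of 1 step per library, within 0.02 reads in all 6, for 71.8% of 15465 genes with a length, including Dnmt3a, Dnmt3b, Tet2, Uhrf1, Uhrf2 and Mbd2. Reads of Dnmt1, Tet1 and Tet3 are estimates. Per the file headers the other columns hold the authors' log2 fold change, p-value and adjusted p-value.

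Genotypes were compared with limma (version 3.58.1, under R 4.3.3), fitted to log2(RPKM + 0.5) with a variance trend and genotype as the term, for genes that reached 1 RPKM in 3 or more libraries; this pseudocount understates changes of low genes. Library kits amplify RNA (NuGen Ovation, per the labels), so reads are not independent molecules. Scripts were tested on simulated data. Members and lists were chosen with earlier results of these data known. The genes named from a list are those at an unadjusted p under 0.05, or else the largest differences, unless stated, with genes of known role (Usp7, Cdca7, Mbd3, Tdg, Neil1, Mat2a and Ogt) added after their values were seen. Alternatives were other pseudocounts, filters and scalings, limma-voom, a replicate block and leaving out libraries.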

Additional observations from a re-analysis of the deposited data

How the results depend on the processing

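The count of 0 genes called in limma was also 0 with other pseudocounts, no filter, a filter at 5 RPKM, no variance trend, robust fitting, quantile normalization and a median shift, and ranged from 0 to 1 when each library was left out. Limma-voom called 6, and 0 to 12 when each library was left out, a repeat chosen after seeing the data. None of the 9 genes was called under any of these settings. The replicate block gave 0 calls in limma and 72 in limma-voom, none of the 9 among them; with it Uhrf1 had an unadjusted limma p of 0.0258 (adjusted p = 0.600). Deviations of same-numbered libraries correlated at 0.015, 0.059 and 0.047 over genes, against -0.076 to 0.035 for libraries with different numbers. WT replicate 1 correlated best with Yy1-KO replicate 2. Values this small do not settle whether same-numbered libraries were paired. Directions that turned belonged to genes whose value with all libraries was small, and the cause was not tested: Dnmt3a at -0.02 without WT replicate 3 and -0.04 without Yy1-KO replicate 2, Tet3 at -0.0014 under quantile normalization, -0.36 without WT replicate 3 and -0.09 without Yy1-KO replicate 2, and Uhrf2 at -0.0331 without WT replicate 1. Without WT replicate 3 and Yy1-KO replicate 1, a setting chosen after seeing the data, Dnmt3a was at -0.0897, Tet1 at -0.0691 and Tet3 at -0.39, Uhrf2 at 0.265, and 5 of the 9 genes lay above 0. Over single libraries left out, the highest values were 0.249 for Dnmt3a, 0.332 for Tet1 and 0.265 for Tet3, and Tet1 was at 0.0524 without Yy1-KO replicate 1. The differences in share, in percentage points, moved by less than the larger of the genotypes' SDs, but several turned sign: Dnmt1 (0.84 with all libraries) was at -1.73 without WT replicate 1, Dnmt3b (1.53) at -1.87 without WT replicate 3, and Tet3 (1.29) at -3.39 without WT replicate 3 and -2.47 without Yy1-KO replicate 2. That of Uhrf1 (12.6) was 1.98 without WT replicate 3. Those of Dnmt3a (-2.79 to -1.97) and Tet2 (-8.62 to -5.04) kept their sign. Without Yy1-KO replicate 1 the medians of the maintenance partners, TET partners and NuRD subunits were 0.02, -0.04 and 0.08, and the base excision median, -0.04 with all libraries, lay between -0.09 and 0.10 when each library was left out in turn. With 3 libraries per genotype, the intervals above set the precision.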

Other observations

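Germline genes that DNA methylation keeps silent in somatic cells give another view of the mark. Of 12 such genes, 2 were among the genes tested. Ddx4, an RNA helicase gene of germ cells, stood at 5.85, 3.37 and 5.17 RPKM in Yy1-KO, against 3.99, 1.05 and 10.3 RPKM in WT, with all Yy1-KO values inside the WT range (limma adjusted p = 0.942). Brdt, a bromodomain gene of the testis, stood at 0.944, 1.16 and 1.44 RPKM in Yy1-KO, against 1.94, 0 and 2.09 RPKM in WT (limma adjusted p = 0.969). The other 10 genes of the list were not among the listed genes under these names, so no level can be given for them.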
